A study of Homo sapiens with 4 samples.

Results

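The library of SW1736-PTX cells was compared with the library of 8505C wt cells, the parental culture of the other line, across all gene names of the deposited tables. The FPKM values (aligned fragments per transcript length, scaled to the depth of the library) of rows with the same gene name were summed, and names above 0.5 FPKM in at least 1 of these libraries were kept, which left 13824 of 26485 names (52.2%). SW1736 and 8505C are established human cell lines derived from anaplastic thyroid cancer (ATC). SW1736-PTX and 8505C-PTX were obtained by growing each line for 6 months in paclitaxel raised from 1 nM up to 1.5 µM and were kept at 1.5 µM afterwards, while the wild type (wt) cultures received none. All cultures were kept in RPMI-1640 medium with serum, and the RNA was sequenced from poly(A)-selected libraries as single-end reads of 75 bases, from 4 cultures with 1 library each. Each resistant line is a single selected culture, so no difference could be set against the spread between cultures and no test was run. In this comparison the parental line also differs between the libraries, so the effect of the selection and the difference between the lines cannot be told apart.

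Paclitaxel binds the beta subunit of tubulin inside the microtubule, prevents its disassembly and so blocks the mitotic spindle. Cells that survive long exposure to the drug are known to pump it out through ABCB1 (P-glycoprotein), to alter the tubulin isotypes and microtubule-binding proteins they make, or to change the spindle checkpoint and the BCL2 family proteins that decide on cell death after a mitotic arrest. Anaplastic thyroid cancers have lost most functions of the thyroid follicular cell, although some keep the transcription factors PAX8 and NKX2-1 that specify it.

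Identity genes of the library labelled SW1736-PTX did not all follow its own parental culture. PAX8 was at 0.206 FPKM in SW1736-PTX, 0.123 in 8505C wt, 38.2 in SW1736 wt and 0.146 in 8505C-PTX. NKX2-1 was at 36.3, 30.5 and 39.0 FPKM in SW1736-PTX, 8505C wt and 8505C-PTX, and 0 was listed for SW1736 wt. KRT19, a keratin of simple epithelia, was at 0.535 FPKM in SW1736-PTX and 266 in SW1736 wt, and at 0 in both 8505C libraries. The metallothionein MT1E was at 0.679 FPKM in SW1736-PTX and 409 in SW1736 wt, and was listed at 0 in both 8505C libraries. At these 4 genes, the library labelled SW1736-PTX was on the side of the 8505C libraries. It was on the side of SW1736 wt at the basal keratin genes KRT14 and KRT17. KRT14 was at 0.170 FPKM in SW1736-PTX, listed at 0 in SW1736 wt, and at 16.6 and 12.2 FPKM in 8505C wt and 8505C-PTX. KRT17 was listed at 0 in both SW1736 libraries and was at 2.21 and 2.77 FPKM in 8505C wt and 8505C-PTX. The deiodinase gene DIO2 was at 1.53 FPKM in SW1736-PTX and 3.34 in SW1736 wt, and at 0.0288 and 0.0250 in 8505C wt and 8505C-PTX. The authors report a short tandem repeat check of both cell lines and do not say whether the PTX cultures were checked after selection. Whether the culture derived from SW1736 was not tested here, and each value below is given for the library as labelled.

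Of the 13824 names compared, 2091 (15.1%) were higher in SW1736-PTX than in 8505C wt by over 1.5 log2 units and 723 (5.23%) were lower by as much, while 11010 lay within these limits. The difference was computed as log2((SW1736-PTX + 0.1)/(8505C wt + 0.1)) on FPKM values, which understates the difference of names with low FPKM. The calls were thus mostly in 1 direction, with 74.3% of the called names higher in SW1736-PTX. Of 12239 protein-coding names 1723 (14.1%) were higher and 601 (4.91%) lower, and of the 1585 other names 368 (23.2%) and 122 (7.70%). Many of the calls were at low levels. The median of the names called higher was 3.55 FPKM in SW1736-PTX and 0.426 in 8505C wt, and 260 of them (12.4%) were listed at 0 in 8505C wt. Of the names called lower, whose medians were 2.09 FPKM in SW1736-PTX and 9.35 in 8505C wt, 65 (8.99%) were listed at 0 in SW1736-PTX. With a level above 10 FPKM in at least 1 library, 583 names were higher and 349 lower, and above 100 FPKM 67 were higher and 56 lower. Where more than 0.5 FPKM was required in both libraries, 993 of 11999 names (8.28%) were higher and 468 (3.90%) lower. The SW1736-PTX library was also the deeper one, with 57.9 M reads against 43.5 M in 8505C wt, and it had fewer names at 0 (8485 against 10241). The part of depth in the split of the calls was not tested. For the 7508 names above 5 FPKM in both libraries, the median difference was -0.10, and for all names compared it was 0.10 with quartiles of -0.50 and 0.87. The calls closest to the limit were LIN7B and PPT2-EGFL8, with a log2 difference of 1.50, and the list and gene values below are to be read against the shares of 15.1% higher and 5.23% lower.

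**Figure D1:**
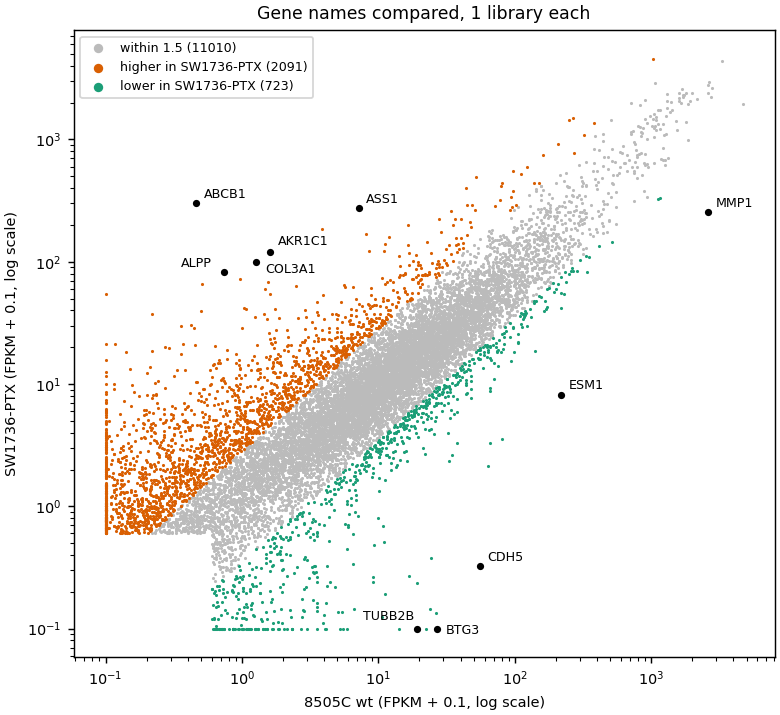
Level of each compared gene name in 8505C wt (horizontal axis) and SW1736-PTX (vertical axis), as FPKM + 0.1 on log scales, 1 library each. Grey points are the 11010 names within 1.5 on the log2 scale, orange the 2091 names higher and green the 723 names lower in SW1736-PTX; ABCB1 lies farthest from the diagonal among the labelled names on the upper side, and BTG3 and TUBB2B lie at 0 FPKM in SW1736-PTX.

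Against its own parental culture, the same library had 3681 of 14202 names called (25.9%), of which 2236 (15.7%) were higher and 1445 (10.2%) lower, and 8505C-PTX had 2880 of 13794 names called against 8505C wt (20.9%), of which 2068 (15.0%) were higher and 812 (5.89%) lower. These comparisons each share a library with that of SW1736-PTX and 8505C wt, so their values are only set side by side. A list of 20 genes, which was chosen on these samples for the difference between SW1736-PTX and SW1736 wt and is not independent of it, shows how far the choice of reference matters. Against 8505C wt, 14 of the 20 genes were compared, 2 were higher, 4 were lower and 8 lay within the limits. The higher genes were ABCB1 and ASS1, the argininosuccinate synthase of arginine synthesis. Of the other genes chosen as higher than in SW1736 wt, the Wnt antagonist SFRP1 was at 353 FPKM in SW1736-PTX and 127 in 8505C wt, a log2 difference of 1.47 against 11.79 with SW1736 wt as reference. The metastasis suppressor gene KISS1 was at 227 FPKM in SW1736-PTX and 366 in 8505C wt (log2 difference -0.69), and the cytoskeletal adaptor gene EPB41L3 at 112 and 175 FPKM (-0.64). The laminin chain LAMA5 was at 129 and 68.2 FPKM (0.92). CD99, a surface glycoprotein, was at 438 and 201 FPKM (1.12), and SLC25A6, an ATP/ADP carrier of mitochondria, at 1068 and 387 FPKM (1.46). With the rows of a name summed, CD99 and SLC25A6 were at 160 and 469 FPKM in SW1736 wt. Their differences against SW1736 wt were 1.45 and 1.19, so both genes were within the limit with either reference. The interstitial collagenase MMP1 was lower, with 254 FPKM in SW1736-PTX against 2630 in 8505C wt (-3.37), although it was listed at 0 in SW1736 wt. Of the genes chosen as lower than in SW1736 wt, 6 were not above 0.5 FPKM in either SW1736-PTX or 8505C wt, among them TMEM200A, CDCA7L and CDH13. The activin subunit gene INHBA was at 0.253 FPKM in SW1736-PTX, 0.515 in 8505C wt and 121 in SW1736 wt. G0S2, an inhibitor of fat breakdown, was lower than in either parental culture, with 0.345 FPKM in SW1736-PTX, 5.82 in 8505C wt and 110 in SW1736 wt (-3.73).

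The protein-coding genes with the largest excess in SW1736-PTX were led by ABCB1, CALB2 and COL11A1, and a pair of placental-type alkaline phosphatases was among the first 10. ABCB1 (chromosome 7, 87503863 to 87713323, hg38) was at 302 FPKM in SW1736-PTX and 0.363 in 8505C wt, a log2 difference of 9.35, with 497 in 8505C-PTX and a listed 0 in SW1736 wt. CALB2, the calcium-binding protein calretinin, was at 21.2 FPKM in SW1736-PTX and listed at 0 in 8505C wt, with 1.78 in SW1736 wt and 0.0665 in 8505C-PTX. The fibrillar collagen gene COL11A1 was at 21.2 and 0.0167 FPKM (log2 difference 7.51), with 1.32 in 8505C-PTX. ALPPL2 and ALPP encode the germ-cell and placental alkaline phosphatases, enzymes anchored to the cell surface. ALPPL2 was at 37.5 FPKM in SW1736-PTX and 0.120 in 8505C wt (7.42), and ALPP at 81.6 and 0.637 FPKM (6.79). Both were listed at 0 in SW1736 wt, and in 8505C-PTX they were at 36.6 and 77.9 FPKM, so that the resistant libraries were high and the parental libraries low. OLFM1, a secreted olfactomedin, was at 66.2 and 0.408 FPKM (7.03), and PLXDC2 at 18.3 and 0.0410 FPKM (7.03), and both were lower in 8505C-PTX, at 3.29 and 1.70 FPKM. VAT1L, the scavenger collectin COLEC12 and the metalloproteinase MMP28 were listed at 0 in both wt libraries and were at 12.3, 11.6 and 9.93 FPKM in SW1736-PTX. COLEC12 and MMP28 were also above 0.5 in 8505C-PTX, at 4.34 and 7.07 FPKM, as was VAT1L, at 0.505. The 10 names thus fell into those at similar levels in both resistant libraries, such as ALPP, and those mostly of SW1736-PTX, such as CALB2 and OLFM1.

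**Figure D2:**
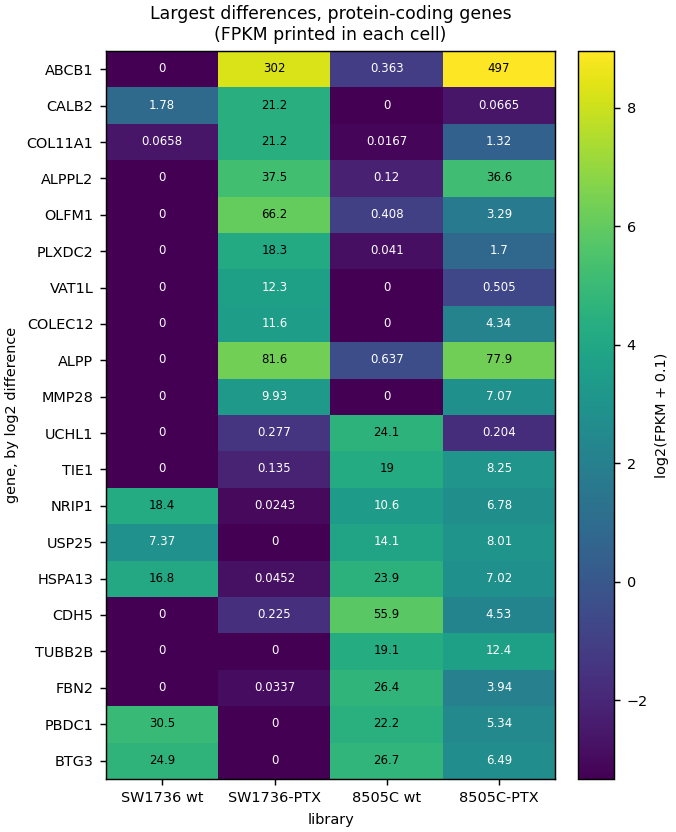
Heat map of the 10 protein-coding genes with the largest excess and the 10 with the largest deficit in SW1736-PTX against 8505C wt (rows) in the 4 libraries (columns), coloured by log2(FPKM + 0.1), with the FPKM printed in each cell. ABCB1, ALPP, ALPPL2 and MMP28 are high in both PTX libraries and low in both wt libraries, while BTG3, PBDC1, HSPA13, USP25 and NRIP1 are near or at 0 in SW1736-PTX alone.

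Among names above 0.5 FPKM in both libraries, where neither value rests on a few reads, the 6 largest excesses were those of ALPP, COL3A1, MAGEB2, AKR1C1, C1QTNF6 and AKR1C3. The fibrillar collagen gene COL3A1 was at 99.8 FPKM in SW1736-PTX and 1.17 in 8505C wt (log2 difference 6.29), with 0.132 in SW1736 wt and 58.1 in 8505C-PTX. The cancer-testis gene MAGEB2 was at 72.5 and 0.870 FPKM (6.23). AKR1C1 and AKR1C3 are aldo-keto reductases that reduce steroids and reactive aldehydes. AKR1C1 was at 120 FPKM in SW1736-PTX and 1.52 in 8505C wt (6.21), with 0.597 in SW1736 wt and 66.0 in 8505C-PTX. AKR1C3 was at 68.6 and 1.45 FPKM (5.47), and its neighbour AKR1C2 at 7.98 and 0.135 FPKM (5.11). C1QTNF6, a secreted C1q-like protein, was at 186 and 3.73 FPKM (5.60), with 34.1 in 8505C-PTX.

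The promoters of these neighbouring pairs are shown because all 4 genes were high in both resistant libraries and low in both wt libraries. The sequences run from 250 bases before to 50 after the RefSeq start site (GRCh38.p14), 5′ to 3′ on the gene's strand, and capitals mark matches, on either strand, to TATAAA (the TATA box), CCAAT (the CCAAT box), GGGCGG (the GC box), TGACNNNGC (the core of the antioxidant response element) or TGANTCA (an AP-1 site). ALPP lies at chr2:232378501-232378800 on the plus strand and ALPPL2, named ALPG in RefSeq, at chr2:232406594-232406893 on the plus strand. AKR1C1 lies at chr10:4963165-4963464 on the plus strand and AKR1C2 at chr10:5003808-5004107 on the minus strand.
ALPP: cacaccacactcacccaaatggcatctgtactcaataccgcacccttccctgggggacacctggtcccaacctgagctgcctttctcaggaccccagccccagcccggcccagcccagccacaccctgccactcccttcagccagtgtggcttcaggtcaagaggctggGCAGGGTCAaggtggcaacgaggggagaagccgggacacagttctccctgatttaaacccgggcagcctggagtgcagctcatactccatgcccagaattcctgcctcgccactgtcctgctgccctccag
ALPPL2: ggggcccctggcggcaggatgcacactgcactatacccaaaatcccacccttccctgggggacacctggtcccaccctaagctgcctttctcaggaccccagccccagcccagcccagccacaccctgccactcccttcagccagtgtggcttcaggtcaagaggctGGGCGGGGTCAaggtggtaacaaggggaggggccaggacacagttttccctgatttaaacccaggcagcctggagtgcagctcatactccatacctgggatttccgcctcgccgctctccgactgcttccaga
AKR1C1: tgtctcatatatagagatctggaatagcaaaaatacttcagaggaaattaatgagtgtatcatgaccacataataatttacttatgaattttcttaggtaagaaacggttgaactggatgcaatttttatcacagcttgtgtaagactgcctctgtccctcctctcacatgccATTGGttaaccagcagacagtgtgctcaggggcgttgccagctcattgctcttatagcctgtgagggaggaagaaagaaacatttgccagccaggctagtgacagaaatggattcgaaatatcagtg
AKR1C2: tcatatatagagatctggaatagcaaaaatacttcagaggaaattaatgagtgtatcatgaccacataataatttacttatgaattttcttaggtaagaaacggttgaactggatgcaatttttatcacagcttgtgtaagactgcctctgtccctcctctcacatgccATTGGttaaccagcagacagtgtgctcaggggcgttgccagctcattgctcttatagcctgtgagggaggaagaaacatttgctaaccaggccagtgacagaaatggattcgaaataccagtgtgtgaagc

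Of the 300 bases, the ALPP and ALPPL2 promoters had 69% in common position by position, and both held a match to TGACNNNGC from -81 to -73 relative to the start site, a motif with a match in 13.3% of 35116 promoters of this length. In ALPPL2 a GGGCGG match from -83 to -78, as in 45% of promoters, overlapped it, so the capitals there run together. The AKR1C1 and AKR1C2 promoters were identical at 89.2% of 296 aligned bases, and each had a single match, to CCAAT, from -77 to -73 in AKR1C1 and from -81 to -77 in AKR1C2 (34.6% of promoters). The window at the RefSeq start site of ABCB1 (chr7:87713246-87713545, minus strand) had no match to any of the 5 motifs. Other possible start sites of ABCB1 were not examined. Such matches describe the sequence only. Where paralogs share sequence, the division of reads between them is uncertain. Of all 75-base stretches of their transcripts, 18.6% of those of ALPP occur in ALPPL2 and 20.6% of those of ALPPL2 in ALPP, and 15.4% of those of AKR1C1 occur in AKR1C2 and 26.8% of those of AKR1C2 in AKR1C1.

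The largest deficits in SW1736-PTX included genes near 0 in that library alone and genes at high levels in 8505C wt but at or near 0 in both SW1736 libraries. BTG3, an antiproliferative gene, was listed at 0 in SW1736-PTX and at 26.7 FPKM in 8505C wt, 24.9 in SW1736 wt and 6.49 in 8505C-PTX. PBDC1 was likewise listed at 0, against 22.2, 30.5 and 5.34 FPKM in the same order. HSPA13, a chaperone of the HSP70 family, was at 0.0452 FPKM in SW1736-PTX and 23.9 in 8505C wt (log2 difference -7.37). The deubiquitinase gene USP25 was listed at 0 against 14.1 FPKM in 8505C wt, and NRIP1, a nuclear receptor corepressor, was at 0.0243 and 10.6 FPKM (-6.43). A second set was low in both SW1736 libraries. FBN2, a fibrillin of elastic microfibrils, was at 0.0337 FPKM in SW1736-PTX and 26.4 in 8505C wt (-7.63), and was listed at 0 in SW1736 wt. The endothelial cadherin gene CDH5 was at 0.225 and 55.9 FPKM (-7.43) and the receptor kinase gene TIE1 at 0.135 and 18.97 FPKM (-6.35), and both were listed at 0 in SW1736 wt. The beta-tubulin gene TUBB2B was listed at 0 in both SW1736 libraries and was at 19.1 FPKM in 8505C wt and 12.4 in 8505C-PTX. UCHL1, a ubiquitin hydrolase of neurons, was at 0.277 FPKM in SW1736-PTX, 24.1 in 8505C wt and 0.204 in 8505C-PTX. Unlike at PAX8 or NKX2-1, the SW1736-PTX library was thus near the level of SW1736 wt for FBN2, CDH5, TIE1 and TUBB2B. In 8505C-PTX, FBN2, CDH5 and TIE1 were at 3.94, 4.53 and 8.25 FPKM. FBN2 and CDH5 were there also lower than in 8505C wt past the limit (-2.71 and -3.59), so this decrease was not confined to SW1736-PTX.

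Among names above 0.5 FPKM in both libraries, the largest deficits were those of KRTAP2-3, ESM1, RGS4, ADAMTS1, MMP14 and CXCL1. ESM1, the proteoglycan endocan, was at 8.05 FPKM in SW1736-PTX and 220 in 8505C wt (log2 difference -4.75), with 63.7 in 8505C-PTX. RGS4, a regulator of G-protein signalling, was at 3.46 and 80.5 FPKM (-4.50). ADAMTS1, a secreted protease of aggrecan, was at 3.17 and 65.7 FPKM (-4.33), and it was at 78.2 in SW1736 wt and 8.16 in 8505C-PTX, so that both resistant libraries were below both wt libraries. MMP14, a membrane-bound metalloproteinase, was at 0.589 FPKM in SW1736-PTX, 10.7 in 8505C wt, 154 in SW1736 wt and 17.3 in 8505C-PTX.

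Of the ATP-binding cassette transporters, the family of membrane pumps to which ABCB1 belongs, 21 of 29 listed genes were compared, 8 were higher in SW1736-PTX and 0 lower, with a median log2 difference of 1.27. This median was 0.57 with a pseudocount of 1 FPKM and 0.21 for members above 0.5 FPKM in both libraries. The median was 0.52 against SW1736 wt, and 0.33 for 8505C-PTX against 8505C wt. Of the drug efflux pumps in the stricter sense, 3 of 8 compared were higher. Beside ABCB1, these were ABCC3, at 0.545 FPKM and listed at 0 in 8505C wt, and ABCC2. The ABCC3 call against 8505C wt was lost with a pseudocount of 1 FPKM (log2 difference 0.63). Against its own parental culture ABCC3 was lower, with 3.68 FPKM in SW1736 wt (-2.55), and in 8505C-PTX it was at 0.156. ABCC1 was at 17.0 and 14.6 FPKM (0.21). The lipid transporters ABCA2 and ABCA3 were higher in both resistant libraries. ABCA2 was at 53.5 FPKM in SW1736-PTX and 8.79 in 8505C wt (2.59), with 6.51 in SW1736 wt and 36.2 in 8505C-PTX. ABCA3 was at 10.1 and 0.645 FPKM (3.78), with 0.0314 in SW1736 wt and 10.5 in 8505C-PTX. ABCG1, which exports cholesterol, was at 2.28 and 0.198 FPKM (3.00, and 1.45 with a pseudocount of 1 FPKM). The mitochondrial transporter gene ABCB8 was at 20.3 and 5.49 FPKM (1.87). Genes next to ABCB1 on chromosome 7 were high with it. SRI, which encodes the calcium-binding protein sorcin, was at 224 FPKM in SW1736-PTX and 36.4 in 8505C wt (2.62), and CROT, a peroxisomal carnitine transferase, at 17.0 and 1.79 FPKM (3.17). TMEM243 was at 40.5 and 6.81 FPKM (2.55), while DBF4, the activator of a replication kinase, was at 19.3 and 12.2 FPKM (0.66).

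The most abundant tubulin genes lay within the limits. Of 15 tubulin genes compared, 2 were higher and 1 was lower, with a median log2 difference of -0.29. The neuronal isotype TUBB4A was at 2.05 FPKM in SW1736-PTX and 0.294 in 8505C wt (2.45), and the alpha-tubulin gene TUBA1A at 130 and 41.9 FPKM (1.63), with 173 FPKM in 8505C-PTX. The gene called lower was TUBB2B, for which 46.8% of the 75-base stretches of its transcript also occur in TUBB2A. The abundant TUBA1B was at 700 and 1334 FPKM (-0.93), TUBA1C at 382 and 884 FPKM (-1.21), and TUBB4B at 547 and 751 FPKM (-0.46), none of them past the limit. The summed level of the listed tubulins was 2553 FPKM in SW1736-PTX, 4061 in 8505C wt, 4454 in SW1736 wt and 2171 in 8505C-PTX, so that it was lower in both resistant libraries.

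Of 32 compared genes for microtubule-associated proteins, 7 were higher and 2 lower, with a median log2 difference of -0.10. The higher genes included proteins that bind along and stabilize microtubules in neurons. MAP2 was at 2.38 FPKM in SW1736-PTX and 0.0312 in 8505C wt (4.24), MAPT, which encodes tau, at 2.47 and 0.0702 FPKM (3.92), and MAP6 at 1.39 and 0.0124 FPKM (3.72). VASH1, which removes the terminal tyrosine of alpha-tubulin, was at 7.35 and 0.791 FPKM (3.06), and the plus-end protein gene CLIP2 at 43.1 and 7.51 FPKM (2.51). MAP2, MAP6 and VASH1 were also high in 8505C-PTX, at 7.06, 1.43 and 9.67 FPKM. ATAT1, the enzyme that acetylates alpha-tubulin, was listed at 0 in SW1736-PTX and was at 1.42 FPKM in 8505C wt, 4.43 in SW1736 wt and 2.70 in 8505C-PTX. Its call against 8505C wt was lost with a pseudocount of 1 FPKM (log2 difference -1.27). STMN1, a destabilizer of microtubules, was at 112 and 244 FPKM (-1.12), below the limit for a call.

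Genes of mitosis and proliferation were lower more often than any other list with at least 10 compared members. Of 36 compared, 15 were lower and 3 higher, and 30 were below 0, with a median log2 difference of -1.39. Against SW1736 wt the median was -1.08, and for 8505C-PTX against 8505C wt it was -1.53. By role, 7 of 10 proliferation markers were lower, 5 of 12 kinases and cyclins, and 2 of 6 spindle checkpoint genes. The proliferation marker MKI67 was at 19.9 FPKM in SW1736-PTX, 62.8 in 8505C wt, 110 in SW1736 wt and 18.0 in 8505C-PTX, a log2 difference of -1.65. The replication helicase gene MCM5 was at 18.9 and 75.9 FPKM (-1.997), the checkpoint gene MAD2L1 at 18.3 and 73.6 FPKM (-2.003), and cyclin E2 (CCNE2) at 4.09 and 23.6 FPKM (-2.50). Cyclin D3 (CCND3) was at 8.15 and 44.03 FPKM (-2.42), with 35.6 in SW1736 wt and 8.49 in 8505C-PTX. PCNA, the sliding clamp of replication, was at 104 and 258 FPKM (-1.31), and TOP2A at 71.6 and 146 FPKM (-1.03), both within the limit. Inhibitors of the cycle went in both directions, with 2 of 8 higher and 1 lower. CDKN1C, an imprinted inhibitor of cyclin-dependent kinases, was at 14.1 and 0.847 FPKM (3.91), with 0.878 in SW1736 wt and 13.8 in 8505C-PTX. The inhibitor CDKN2B was also higher, and RB1, which restrains entry into the cycle, was among the lower genes. Cyclin D2 (CCND2) was at 1.30 FPKM and listed at 0 in 8505C wt, a call lost with a pseudocount of 1 FPKM (log2 difference 1.20). The growth rate and cycle state of the cultures at harvest were not measured in these data, and their part in these values was not tested.

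Of 15 BCL2 family genes compared, 3 were higher and 1 was lower, with a median log2 difference of 0.14. The higher genes all encode BH3-only proteins, the members that trigger cell death. BBC3 (PUMA) was at 8.59 FPKM in SW1736-PTX and 0.673 in 8505C wt (3.49), BMF at 4.13 and 0.115 FPKM (4.30), and BCL2L11 (BIM) at 11.4 and 2.57 FPKM (2.11). In 8505C-PTX they were at 8.57, 13.9 and 8.81 FPKM. The survival factor gene BCL2A1, the lower gene, was listed at 0 in both SW1736 libraries and was at 1.38 FPKM in 8505C wt. Its call was lost with a pseudocount of 1 FPKM (log2 difference -1.25). The main survival factors BCL2L1 and MCL1 were at 84.2 and 64.8 FPKM (0.38) and at 62.8 and 83.9 FPKM (-0.42).

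**Figure D3:**
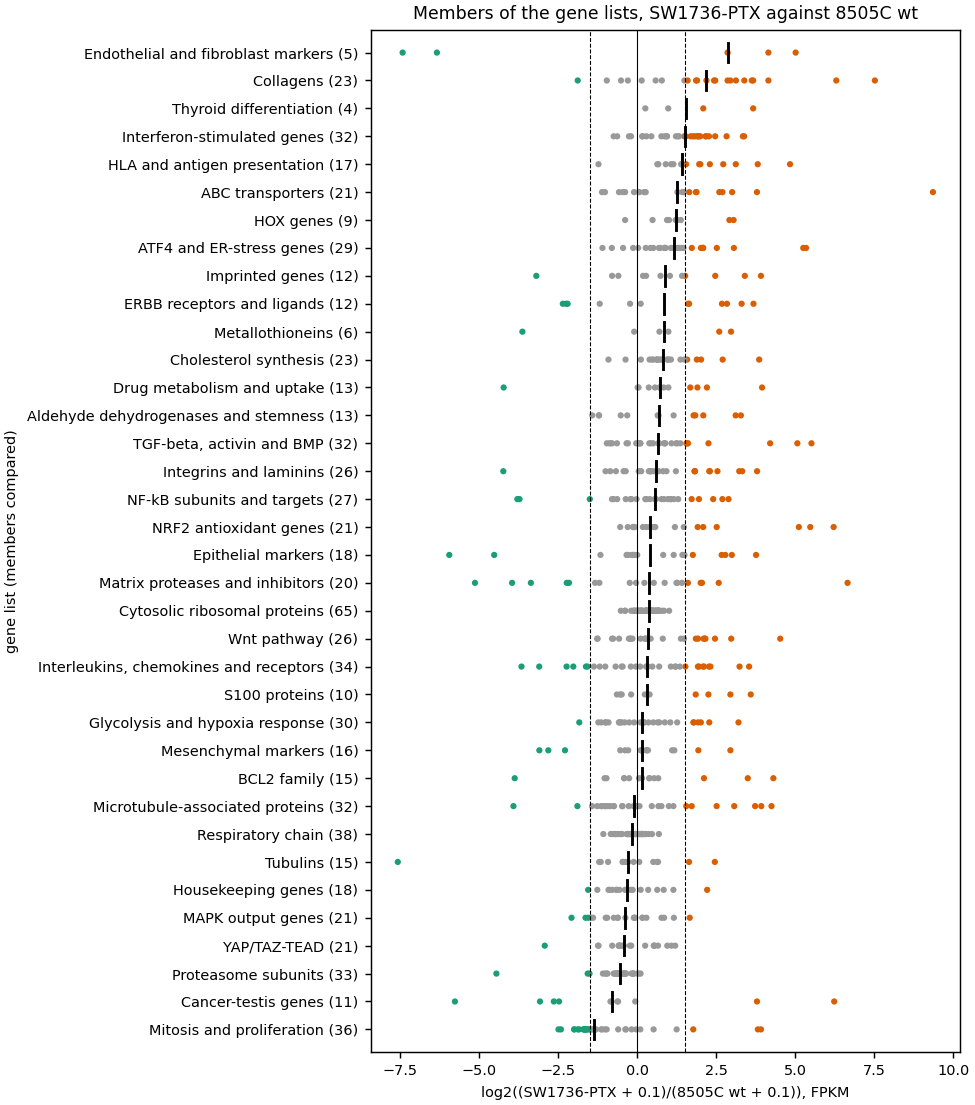
Log2 difference between SW1736-PTX and 8505C wt for the compared members of each gene list with at least 4 compared members, with 1 point per gene, the list median as a black bar, the number compared in brackets, and dashed lines at the limits of 1.5 and -1.5. Collagens, interferon-stimulated genes and HLA genes have medians of 2.18, 1.50 and 1.41, and mitosis genes a median of -1.39, while ribosomal and respiratory chain genes have no member past the limits.

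Epithelial and mesenchymal markers were called in both directions against 8505C wt, and of all names 20.4% were called in either direction. Of 14 thyroid differentiation genes, 4 were compared and 2 were higher. NKX2-1 differed by 0.25 and HHEX by 0.97, while FOXE1 was at 0.511 and 0.0443 FPKM (2.08) and DIO2, a deiodinase, at 1.53 and 0.0288 FPKM (3.66). Both were below SW1736 wt, which was at 26.6 and 3.34 FPKM. TSHR and SLC5A5, which mark the differentiated follicular cell, were listed at 0 in all 4 libraries. Of 18 epithelial genes compared, 5 were higher and 2 lower, with a median log2 difference of 0.40, which became -0.01 for members above 0.5 FPKM in both libraries. KRT80 was at 73.0 and 10.5 FPKM (2.78), and the claudin gene CLDN4 at 4.33 and 0.459 FPKM (2.99). KRT14, a basal keratin, was at 0.170 FPKM in SW1736-PTX and 16.6 in 8505C wt (-5.95), and KRT17 was listed at 0 against 2.21 FPKM. Of 16 mesenchymal genes compared, 2 were higher and 3 lower, with a median of 0.15. Vimentin (VIM) was at 1740 and 1417 FPKM (0.30). S100A4 was at 21.9 and 2.77 FPKM (2.94) and the transcription factor gene SNAI2 at 1.05 and 0.202 FPKM (1.93). In SW1736 wt, S100A4 was at 0.482 FPKM and SNAI2 at 4.72, so that SNAI2 was below its own parental culture. The actin-binding protein gene TAGLN was at 2.89 and 21.05 FPKM (-2.82), and LOX, which cross-links collagen, at 5.27 and 26.2 FPKM (-2.29). POSTN was lower by 3.10 on the log2 scale.

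Most listed markers of other cell types were not above 0.5 FPKM in either SW1736-PTX or 8505C wt. Of 13 immune cell markers, 2 were compared, and their summed level was 24.4 FPKM in SW1736-PTX and 22.2 in 8505C wt, nearly all of it the lysosomal CD68, while the other library sums were 6.77 in SW1736 wt and 47.7 in 8505C-PTX. Of 14 endothelial and fibroblast markers, 5 were compared, with 3 higher and 2 lower. The defining markers PTPRC, PECAM1, VWF and KDR were below 0.5 FPKM in every library. The lower genes were CDH5 and TIE1. The higher genes were the growth factor receptor gene PDGFRB, at 6.08 and 0.0922 FPKM (5.01), with 0.402 in SW1736 wt and 6.49 in 8505C-PTX, and the collagen genes COL1A1 and COL1A2. COL1A1 was at 2.19 FPKM in SW1736-PTX, 0.217 in 8505C wt and 153 in SW1736 wt, so that it was called higher against 8505C wt and far below its own parental culture. With a pseudocount of 1 FPKM, the calls of COL1A1 and COL1A2 against 8505C wt were lost (log2 differences 1.39 and 1.42).

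Collagens were the list with the highest median among those with at least 10 compared members. Of 23 collagen genes compared, 15 were higher and 1 was lower, with a median log2 difference of 2.18 (1.25 with a pseudocount of 1 FPKM), and the medians in the comparisons with SW1736 wt and of 8505C-PTX with 8505C wt were 1.49 and 1.65. Against SW1736 wt, 11 of 25 collagen genes were higher and 7 lower. For 8505C-PTX against 8505C wt, 15 of 22 were higher and 1 was lower. Of the fibrillar collagens, 7 of 8 were higher in SW1736-PTX than in 8505C wt. The summed level of the listed fibrillar collagens was 270 FPKM in SW1736-PTX, 14.3 in 8505C wt, 314 in SW1736 wt and 145 in 8505C-PTX. COL5A1 was at 138 FPKM in SW1736-PTX and 11.2 in 8505C wt (3.62), with 76.4 in 8505C-PTX, and COL27A1 at 4.75 and 0.283 FPKM (3.66). In SW1736 wt, COL5A1 and COL27A1 were at 41.7 and 7.39 FPKM. The basement membrane collagens COL4A1 and COL4A2 were at 14.1 and 27.6 FPKM (-0.97) and at 42.5 and 60.98 FPKM (-0.52). COL6A2, listed at 0 in SW1736 wt, was at 28.6 and 16.7 FPKM (0.77). The summed level of the listed collagens was 740 FPKM in SW1736-PTX, 227 in 8505C wt, 611 in SW1736 wt and 715 in 8505C-PTX.

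Of 26 integrin and laminin genes, the cell-surface receptors and basement membrane proteins to which cells attach, 9 were higher and 1 was lower, with a median of 0.59. ITGA11, a receptor for collagen, was at 23.7 and 1.63 FPKM (3.79), with 34.2 in 8505C-PTX, and ITGB3 at 6.95 and 0.609 FPKM (3.32). In SW1736 wt, ITGA11 and ITGB3 were at 7.18 and 4.84 FPKM. The laminin chain gene LAMA4 was lower, with 0.387 FPKM in SW1736-PTX against 9.13 in 8505C wt (-4.24), 32.9 in SW1736 wt and 31.0 in 8505C-PTX. The matrix proteases and their inhibitors were split, with 5 of 20 higher and 5 lower. MMP2, a gelatinase, was at 8.18 and 1.29 FPKM (2.57). MMP16 was at 0.0109 and 3.81 FPKM (-5.14).

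Antigen presentation and interferon-stimulated genes were higher in SW1736-PTX as groups, with no member lower. Of 17 HLA and antigen presentation genes compared, 8 were higher, with a median log2 difference of 1.41, and of 32 interferon-stimulated genes 16 were higher, with a median of 1.50. The corresponding medians were 1.58 and 1.57 against SW1736 wt and 1.37 and 1.58 for 8505C-PTX against 8505C wt. HLA-B, a class I molecule, was at 291 FPKM in SW1736-PTX, 44.3 in 8505C wt, 70.9 in SW1736 wt and 271 in 8505C-PTX (2.72). HLA-F was at 28.5 and 0.908 FPKM (4.83), and the class II chain gene HLA-DPA1 at 2.25 and 0.0679 FPKM (3.81). B2M, the shared light chain, was at 843 and 383 FPKM (1.14), within the limit. HLA genes differ in sequence between people and so between these lines, and the part of alignment in their values was not tested. Among the interferon-stimulated genes, the RNA sensor gene IFIH1 was at 5.00 and 0.963 FPKM (2.26), OAS1, which activates RNA decay, at 5.31 and 0.421 FPKM (3.38), XAF1 at 1.08 and 0.0167 FPKM (3.34), and the antiviral GTPase gene MX1 at 4.91 and 0.811 FPKM (2.46). The summed level of the interferon list was 2272 FPKM in SW1736-PTX, 1019 in 8505C wt, 400 in SW1736 wt and 4566 in 8505C-PTX, of which IFITM2 and IFITM3 made up most in SW1736-PTX, at 643 and 1106 FPKM.

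Of 29 genes of the ATF4 and endoplasmic reticulum stress response, 9 were higher and 0 lower, with a median log2 difference of 1.15. NUPR1, a stress-induced regulator, was at 7.99 and 0.1004 FPKM (5.34), with 117 in 8505C-PTX, and ASS1 at 273 and 7.09 FPKM (5.25), with 0.411 in SW1736 wt and 99.0 in 8505C-PTX. HERPUD1, which acts in the removal of misfolded proteins, was at 137 and 16.5 FPKM (3.05). The protein disulfide isomerase gene PDIA4 was at 554 and 97.1 FPKM (2.51), whereas in 8505C-PTX it was at 69.5 FPKM, below its parental culture. HSPA5, the main chaperone of the compartment, was at 529 and 237 FPKM (1.16), within the limit. Of 21 antioxidant genes of the NRF2 response, 6 were higher and 0 lower, with a median of 0.41. They included AKR1C1, AKR1C2, AKR1C3, OSGIN1 and the pentose phosphate enzyme gene TKT, at 1428 and 251.0 FPKM (2.51). TXNRD1, a thioredoxin reductase, was at 307 and 231 FPKM (0.41).

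Of 23 cholesterol synthesis genes compared, 5 were higher and 0 lower, with a median log2 difference of 0.80. INSIG1, a sterol sensor that holds back the SREBP factors, was at 123 FPKM in SW1736-PTX and 8.41 in 8505C wt (3.85), with 6.46 in SW1736 wt and 41.4 in 8505C-PTX. The sterol demethylase gene CYP51A1 was at 146 and 22.5 FPKM (2.70), TM7SF2 at 16.3 and 3.97 FPKM (2.01), MSMO1 at 57.7 and 15.6 FPKM (1.88), and the transcription factor gene SREBF2 at 93.9 and 31.5 FPKM (1.57). FDFT1, squalene synthase, was at 171 and 66.5 FPKM (1.36), within the limit. Of 30 genes of glycolysis and the hypoxia response, 6 were higher and 1 was lower, and 5 of the 6 belonged to the hypoxia response. NDRG1, a stress-induced growth regulator, was at 404 and 43.98 FPKM (3.20), with 4.09 in SW1736 wt and 349 in 8505C-PTX, and the hypoxia factor gene EPAS1 at 191 and 47.4 FPKM (2.01). Hexokinase 2 (HK2) was the lower gene, at 4.19 and 15.2 FPKM (-1.84).

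Of 27 NF-kB subunit and target genes compared, 5 were higher and 3 lower, with a median log2 difference of 0.54, and none of the 5 subunits was called. PTGS2, the inducible cyclooxygenase, was at 14.2 and 1.83 FPKM (2.88), with 13.3 in 8505C-PTX, and the cytokine gene IL6 at 26.7 and 6.85 FPKM (1.95). The neutrophil chemokines CXCL1 and CXCL8 were lower, at 2.26 and 32.7 FPKM (-3.80) and at 2.52 and 34.7 FPKM (-3.73), and in SW1736 wt they were at 2.06 and 1.02 FPKM. Of 34 interleukins, chemokines and receptors, 9 were higher and 6 lower. CXCL16 was at 19.8 and 1.61 FPKM (3.53), IL24 at 7.17 and 0.674 FPKM (3.23) and IL32 at 14.1 and 2.76 FPKM (2.31), while IL1RL1, the receptor of IL33, was at 0.728 and 7.03 FPKM (-3.11).

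Of 12 ERBB receptor and ligand genes, 6 were higher and 3 lower. EGF was at 1.45 and 0.0219 FPKM (3.67), NRG2 at 1.92 and 0.183 FPKM (2.83), TGFA at 2.50 and 0.308 FPKM (2.67) and the receptor gene ERBB3 at 4.49 and 0.367 FPKM (3.30), while EREG was at 0.308 and 2.00 FPKM (-2.36) and ERRFI1, an inhibitor of EGFR, at 3.86 and 18.9 FPKM (-2.26). EGFR itself was at 23.9 and 28.1 FPKM (-0.23). In SW1736 wt, EGF was listed at 0, and NRG2, TGFA and ERBB3 were at 0.0138, 2.47 and 2.12 FPKM. Of 21 output genes of the MAPK pathway, 1 was higher and 3 were lower. FOSL1, an AP-1 subunit, was at 54.0 FPKM in SW1736-PTX, 229 in 8505C wt, 423 in SW1736 wt and 30.5 in 8505C-PTX (-2.09). Of 26 Wnt pathway genes, 8 were higher and 0 lower, with WNT5A at 2.87 and 0.0297 FPKM (4.52) and the antagonist gene DKK3 at 223 and 40.6 FPKM (2.45). In SW1736 wt, WNT5A and DKK3 were at 6.86 and 135 FPKM. Against that culture, 6 of 27 Wnt pathway genes were higher and 5 lower. Of 32 genes of the TGF-beta, activin and BMP family, 7 were higher and 0 lower. GDF15, a stress-induced ligand, was at 7.93 and 0.0766 FPKM (5.51), with 0.141 in SW1736 wt and 13.9 in 8505C-PTX. BMP6 was at 4.21 and 0.0293 FPKM (5.06), and TGFB2 at 34.4 and 1.78 FPKM (4.20). Of 21 YAP/TAZ-TEAD genes, 0 were higher and 1 was lower, the coagulation initiator F3, at 18.4 and 141 FPKM (-2.93), with 105 in SW1736 wt and 20.1 in 8505C-PTX.

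Genes of basic cell function were close in the libraries. None of 65 ribosomal protein genes and none of 38 respiratory chain genes was called, with medians of 0.35 and -0.16. Of 33 proteasome subunit genes, 31 were below 0, with a median of -0.57, and 3 of the regulatory cap were called lower. PSMD5, an assembly factor of the cap, was at 0.119 FPKM in SW1736-PTX, 4.74 in 8505C wt, 29.7 in SW1736 wt and 0.0143 in 8505C-PTX (-4.46). PSMD2 was at 81.8 and 234 FPKM (-1.52) and PSMC2 at 14.4 and 43.2 FPKM (-1.57). Of 18 housekeeping genes, 1 was higher and 1 lower, the latter being the transferrin receptor gene TFRC, at 28.9 and 85.4 FPKM (-1.56). GAPDH was at 2784 and 2592 FPKM (0.10) and ACTB at 1945 and 4688 FPKM (-1.27), with 1560 FPKM of ACTB in 8505C-PTX.

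Of 9 HOX genes compared, 2 were higher, HOXC10 at 13.5 and 1.56 FPKM (3.04) and HOXC13 at 7.02 and 0.847 FPKM (2.91), with 10.7 and 6.88 FPKM in 8505C-PTX. Of 11 cancer-testis genes, 2 were higher and 4 lower, with PAGE1 listed at 0 in both SW1736 libraries and at 5.38 FPKM in 8505C wt. Of 13 drug metabolism and uptake genes, 4 were higher and 1 was lower. CYP1A1 was at 4.04 and 0.169 FPKM (3.94) and the sulfotransferase gene SULT1A1 at 5.69 and 1.45 FPKM (1.90), while SLCO1B3, an uptake carrier with paclitaxel among its substrates, was listed at 0 in SW1736-PTX against 1.78 FPKM in 8505C wt, 4.64 in SW1736 wt and 0.434 in 8505C-PTX. Of 13 aldehyde dehydrogenase and stemness genes, 5 were higher, among them ALDH3B1, at 13.1 and 1.27 FPKM (3.27), and SOX9, at 25.7 and 7.16 FPKM (1.83). In SW1736 wt, ALDH3B1 and SOX9 were at 7.10 and 45.5 FPKM. Of 10 S100 genes, 4 were higher, with S100A6 at 1361 and 379 FPKM (1.84). Of 6 metallothionein genes and regulators, 2 were higher and 1 was lower, with MT1X at 113 and 18.7 FPKM (2.59) and MT2A at 653 and 331 FPKM (0.98). Of 12 imprinted genes, 4 were higher and 1 was lower, MEST, at 0.00653 FPKM in SW1736-PTX against 0.879 in 8505C wt (-3.20), 11.8 in SW1736 wt and 8.69 in 8505C-PTX.

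To set the comparison beside a second one that shares no library with it, 8505C-PTX was compared with SW1736 wt, where 2377 of 14231 names (16.7%) were higher and 1584 (11.1%) lower, 27.8% in all. Of 13363 names compared in both crossed comparisons, 988 were higher in both resistant libraries, which is 47.3% of the 2091 names higher in SW1736-PTX and 41.6% of the 2377 higher in 8505C-PTX. Of the 2091 names, 1846 were among those compared in the crossed pair, and 53.5% of these were higher there, against 2142 (16.03%) of all names compared in both. Lower in both were 306 names, 42.3% of the 723 and 19.3% of the 1584, and 47.4% of the 646 compared in the crossed pair, against 1178 (8.82%) of all names. Names kept through the resistant library alone can be called higher but not lower, and those kept through the wt library alone the reverse. Part of these shares thus follows from the filter, and the shares of all names are not a like reference. With more than 0.5 FPKM required in both libraries, 315 names were higher and 220 lower in both. Called in opposite directions were 136 names higher in SW1736-PTX and 81 lower in it. The largest excess shared by both, after ABCB1, was that of the noncoding WFDC21P, listed at 0 in both wt libraries and at 54.0 FPKM in SW1736-PTX and 33.0 in 8505C-PTX, followed by ALPPL2, ALPP, COL3A1 and MAGEB2. The largest shared deficits were in the trypsinogen gene PRSS3, listed at 0 in both resistant libraries and at 4.04 FPKM in 8505C wt and 2.55 in SW1736 wt, the neural adhesion gene NTM, PSMD5, the lysosomal GLMP, PNPLA4 and FGF13. GLMP was at 0.0372 FPKM in SW1736-PTX, 4.93 in 8505C wt, 11.7 in SW1736 wt and 0.529 in 8505C-PTX.

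Of all names compared in both, 7.39% were higher and 2.29% lower in both. By list, the names higher in both crossed comparisons were 9 of 32 interferon-stimulated genes, among them IFIH1, IFITM1, MX1 and XAF1, 5 of 17 HLA and antigen presentation genes, and all 5 cholesterol synthesis genes called above. They were also 6 of 21 collagen genes compared in both, 7 of 26 integrin and laminin genes, 5 of 29 ATF4 and endoplasmic reticulum stress genes, the 3 AKR1C genes, and BBC3 and BMF of the BCL2 family. The names lower in both were 6 of 35 mitosis genes, among them CCND3, CCNE2, MKI67, MCM5 and RB1, the 3 proteasome cap genes, FOSL1 and F3. Of the leading genes of SW1736-PTX, COL11A1 was higher in both, whereas CALB2 was not, with 1.78 FPKM in SW1736 wt and 0.0665 in 8505C-PTX. Both resistant libraries were deeper than both wt libraries, and the part of this in the shared calls was not tested.

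Along the genome, the share of names called was uneven. Chromosome 21 had the largest share of lower names, 34 of 122 (27.9%), with a median log2 difference of -0.82, and chromosome 13 had 46 of 225 (20.4%), with a median of -0.84, against 5.23% of all names. On chromosome 6, 11.6% were lower. Higher names were most frequent on chromosome 22 (25.6%) and on chromosome 7 (24.8%), which carries ABCB1, against 15.1% of all names. On chromosome 13 the median was -0.88 against SW1736 wt and -0.81 for 8505C-PTX against 8505C wt. The number of copies of these chromosomes was not measured here.

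**Figure D4:**
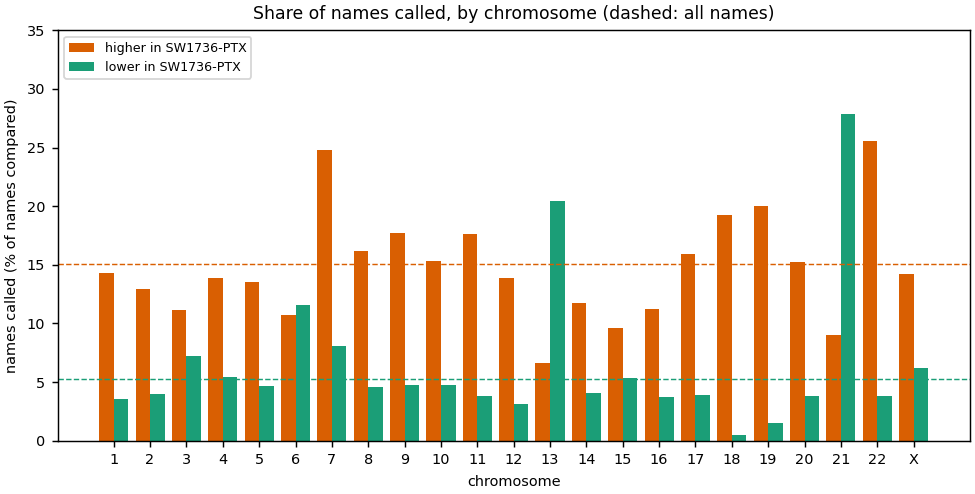
Share of the compared names of each chromosome called higher (orange) or lower (green) in SW1736-PTX than in 8505C wt, in percent, with dashed lines at the shares over all names (15.1% and 5.23%). Chromosomes 21 and 13 stand out by their lower names (27.9% and 20.4%) and chromosomes 22 and 7 by their higher names (25.6% and 24.8%).

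On chromosome 21, 7 consecutive compared names, chosen after their values were seen, were at or near 0 in SW1736-PTX, and 5 of them were above 1 FPKM in each of the other libraries. HSPA13, NRIP1, USP25, CXADR, BTG3, C21orf91 and TMPRSS15 lie from 14371116 to 18403653 on chromosome 21 (hg38), a length of 4.03 Mb. Their summed level was 0.0695 FPKM in SW1736-PTX, 82.0 in 8505C wt, 70.0 in SW1736 wt and 31.5 in 8505C-PTX. The highest of them in SW1736-PTX was HSPA13, at 0.0452 FPKM, and none of the 18 names listed within the interval was above that level. CXADR, the coxsackievirus and adenovirus receptor, was listed at 0 in SW1736-PTX and was at 3.45 FPKM in 8505C wt, 0.0300 in SW1736 wt and 1.94 in 8505C-PTX, and C21orf91 was listed at 0 against 2.60 FPKM in 8505C wt. At the depth of SW1736-PTX, 3 reads on a transcript of 2 kb correspond to 0.0259 FPKM, which covers counting error only. The only other run of at least 4 consecutive compared names below 0.1 FPKM in SW1736-PTX was a cluster of repetitive keratin-associated protein genes on chromosome 17, and no such run was found in 8505C wt. Beyond the run, 27 of 107 names on chromosome 21 (25.2%) were lower and 10 higher, with a median log2 difference of -0.84. The same names had a median of -1.27 against SW1736 wt and of -0.01 for 8505C-PTX against 8505C wt. Among them were SON, an RNA splicing cofactor, at 10.3 and 38.4 FPKM (-1.88), GART, an enzyme of purine synthesis, at 18.5 and 73.5 FPKM (-1.99), and HMGN1, a nucleosome-binding protein, at 42.3 and 171 FPKM (-2.02), which like the run were chosen after their values were seen. The higher names on the chromosome included MX1, ABCG1, COL6A1 and COL18A1, which also belong to the lists above.

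**Figure D5:**
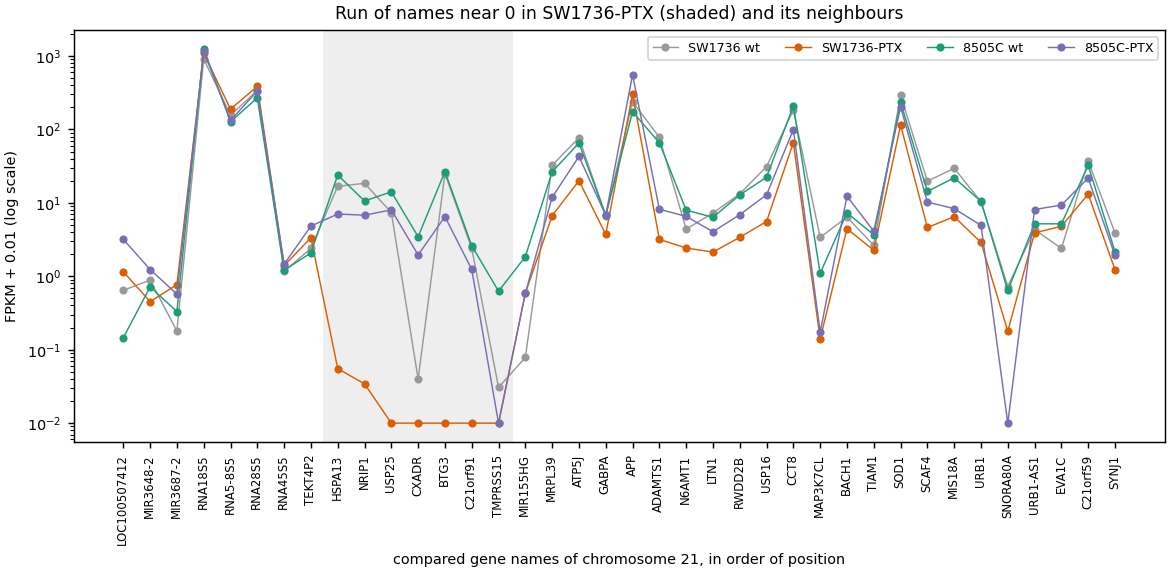
Level (FPKM + 0.01, log scale) in the 4 libraries of the compared names on the first part of chromosome 21, in their order of position, with 1 point per library and the 7 names from HSPA13 to TMPRSS15 shaded. In the shaded run SW1736-PTX (orange) is at most at 0.0452 FPKM, while SW1736 wt, 8505C wt and 8505C-PTX reach 24.9, 26.7 and 8.01 FPKM.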

How the data were processed

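RNA from wt and PTX cultures of SW1736 and 8505C was sequenced with 1 library per condition. Per the methods, the authors made reads with bcl2fastq (version 2.20), removed adapters with Cutadapt and low-quality bases with ERNE, aligned with STAR to the hg38 build and obtained gene abundances from StringTie; the annotation is not given in the sources used here. The deposited FPKM column was used here, the deposited TPM column as an alternative, and the deposited coverage only with FPKM to estimate depth (43.5 to 57.9 M reads). Rows of a name were summed, names above 0.5 FPKM in at least 1 library were kept, and log2 differences used a pseudocount of 0.1 FPKM. Both limits, 0.5 FPKM and 1.5 on the log2 scale, follow the authors.

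The compared pair and the 37 gene lists were chosen with earlier results of these data known. Genes were named by rule: the 10 largest differences each way among called protein-coding names, 6 each way among names above 0.5 FPKM in both libraries, the 20 genes of the own-parent list, and 6 each way in the crossed comparisons. Of each list, up to 6 called members with the largest difference and 3 uncalled members with the highest mean FPKM were named. Identity genes, neighbours of ABCB1 and other genes of chromosome 21 were named after their values were seen. Some list members, such as MKI67, CDKN2B, RB1, ABCC2, IFITM1, TSHR and PTPRC, were also named outside these rules. Some genes that these rules name are not reported here. Of 26485 names, 25378 were matched in RefSeq and 22801 in GENCODE release 44. Alternatives changed the pseudocount, the FPKM limit, the handling of 0, the unit, the centring, the rows used and the limit. The tools were Python 3.11.15 with NumPy 2.4.6 and pandas 2.3.3, and figures were drawn in matplotlib 3.10.9.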

Additional observations from a re-analysis of the deposited data

How the results depend on the processing

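No paired analysis was possible because each condition had 1 library and the labels carry no replicate numbers. The spread between cultures could not be estimated, and the 3-read floor covers counting error only. The counts depended on low values and on the limit of a call. With a pseudocount of 1 FPKM, 990 names were higher and 391 lower, and 426 and 164 were higher and lower in both crossed comparisons. With more than 0.5 FPKM required in both libraries, 993 were higher, 468 lower and 315 higher in both. With a limit of 1, 1601 were lower, and 1549 were higher and 816 lower in both; with a limit of 2, 341 were lower, and 617 were higher and 107 lower in both. The share of calls that were higher ranged from 65.8% to 81.0%. With names listed at 0 left out, the median of the endothelial and fibroblast markers turned to -1.75. Of 37 list medians, 3 changed sign in at least 1 alternative (ERBB genes, epithelial markers and the list just named). None of 307 named genes changed direction past the limit, and 136 of 193 called ones stayed past it under all alternatives run.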
